A study of Mus musculus with 6 samples.

Results

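The 9 genes described here encode the oxygen-sensing arm of the hypoxia-inducible factor (HIF) pathway and a pair of vascular growth factors. They were chosen by name from the table of 54532 genes: Hif1a, Epas1, Arnt, Vhl, Egln1, Egln2, Egln3, Vegfa and Vegfb. All 9 were among the 10460 genes that passed the filter on low values, which asked for a deposited FPKM (reads scaled for gene length and library size) of 1 or more in 3 or more of the 6 libraries. RNA came from the myocardium of wild-type C57BL/6 mice of 18 weeks, and the study describes the hearts of both groups as hypertrophic. The 3 control hearts had received adeno-associated virus AAV9 carrying EGFP. In the decoy group, also of 3, the AAV9 carried anti-miR-199a TuDs (tough decoys), RNAs designed to bind miR-199a and hold it off its targets. Both groups thus carried a virus, and the control vector holds EGFP, not a control decoy. The promoter behind each vector, how hypertrophy was induced, and whether each library is a separate animal are not given in the sources used here, so p-values measure the spread between libraries.

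HIF is a dimer of an alpha subunit, HIF-1alpha from Hif1a or HIF-2alpha from Epas1, with the constant partner encoded by Arnt. When oxygen is present, prolyl hydroxylases from Egln1, Egln2 and Egln3 mark the alpha subunit, and the von Hippel-Lindau protein from Vhl brings it to a ubiquitin ligase for destruction. When oxygen is short the alpha subunit persists and switches on target genes, among them Vegfa, the main angiogenic factor, and Egln3 itself. Oxygen therefore controls HIF-1alpha mainly at the level of protein, which was not measured here. Hif1a has been reported elsewhere as a target of miR-199a in cardiomyocytes.

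The microRNA that the decoys are directed against has a 5p and a 3p arm, shown here because their seeds define the sites searched in the 9 genes. In RefSeq (GRCm38.p6) the same mature sequences come from hairpins on chromosome 9 (the minus strand) and chromosome 1 (the plus strand); on chromosome 1 the 5p arm lies at chr1:162217844-162217866 and the 3p arm at chr1:162217883-162217904. Capitals mark the seed, bases 2 to 8.
miR-199a-5p: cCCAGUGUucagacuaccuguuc
miR-199a-3p: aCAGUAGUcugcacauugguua

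In the longest annotated 3' UTR of each gene (GENCODE M21, GRCm38), 4 of the 9 held a match of 7 bases to a seed, and no match of 8 bases was found. Hif1a, Egln3 and Vegfa each held 1 for the 5p arm, and Epas1 held 1 for the 3p arm. The Hif1a match pairs with the whole seed and starts at base 91 of a 3' UTR of 1827 bases. The other 3 pair with bases 2 to 7 and are followed by an A. Arnt, Vhl, Egln1, Egln2 and Vegfb held none. Among 9552 tested genes with an annotated 3' UTR, 34.1% held such a match to either arm (25.1% to 5p, 14.8% to 3p). Each window of 30 bases is written 5' to 3' on the strand of the gene, with the match in capitals.
Hif1a, chr12:73945783-73945812, plus strand: gttatttttggACACTGGtggctcagcagt
Epas1, chr17:86833311-86833340, plus strand: ttgtcaaattcCTACTGAcgacattataac
Egln3, chr12:54179859-54179888, minus strand: tggtaattcagCACTGGAttctgctaactc
Vegfa, chr17:46018401-46018430, minus strand: attggtgtcttCACTGGAtatgtttgactg

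Reads recovered from FPKM and gene length came to 18024041 to 18224978 per control library and 15231319 to 16651455 per TuD library. All 10 cardiomyocyte markers passed the filter. Myh6, the alpha myosin heavy chain, stood at 3529 to 4197 normalised FPKM, which is FPKM divided by a size factor for each library. Ttn, the lowest of the 10, stood at 8.62 to 16.4. Summed FPKM of 4 Y-linked genes was 8.32 to 12.5 in the controls and TuD replicate 3. It was 0.0254 and 0.00711 in TuD replicates 1 and 2, a difference the labels, which give no sex, do not mention. This difference falls mostly between the groups, so its part in any group difference cannot be fully told apart from that of the vector. Fold changes also followed gene length across the tested genes (r = -0.386 with log10 length, over genes, which are not independent). Both were modelled as alternatives.

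Among the 9 genes, Egln3, Vegfa and Arnt were lower in the decoy hearts, none was higher, and 6 did not pass. The test was a limma model with 2 groups on log2 of normalised FPKM plus 0.5, with p-values adjusted over all 10460 genes and a threshold of 0.05. Over all tested genes 29.3% passed, 15.0% higher and 14.3% lower. The 3 of 9 are near the share that passed in either direction and above the share that was lower. With 9 genes, that gap was not tested. The groups did not overlap for the same 3 members, against 47.9% of all tested genes. The median log2 fold change (TuD minus control) of the members was -0.07, and that of all tested genes 0.01. The number of calls, counted over both directions together, does not set these 9 apart from other genes. The gap between the medians was not tested.

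**Figure D1:**
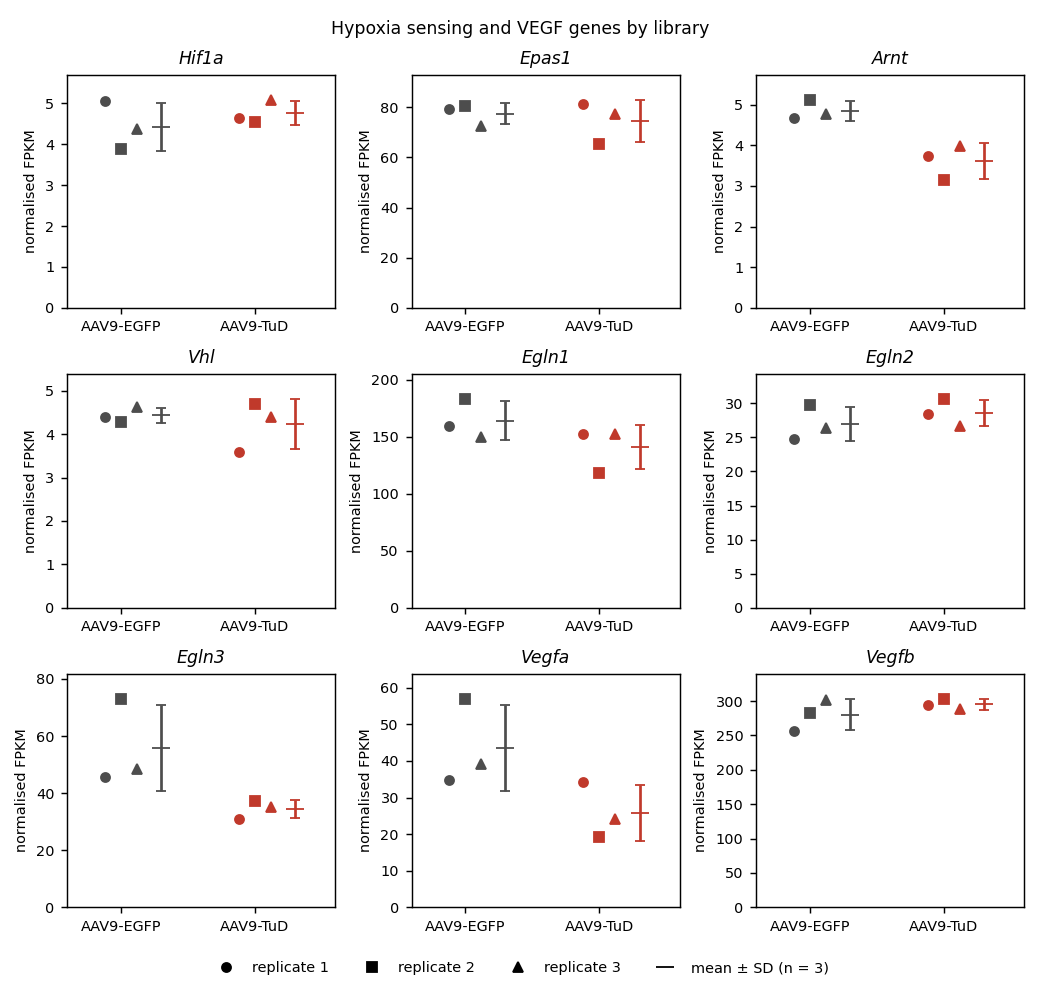
Normalised FPKM of each gene (y axis, from 0) in the 3 AAV9-EGFP and 3 AAV9-TuD libraries, with marker shapes for the replicate number and bars for mean ± SD (n = 3). Arnt, Egln3 and Vegfa are the panels in which all TuD points lie below all control points, and control replicate 2 is the highest point for Egln3 (73.0) and Vegfa (56.95).

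The alpha subunits did not pass the test. Hif1a (ENSMUSG00000021109, mm10 chr12:73901375-73947530), which carries the seed match for the full 5p seed shown above, measured 5.05, 3.88 and 4.37 normalised FPKM in control replicates 1, 2 and 3 and 4.65, 4.54 and 5.10 in TuD replicates 1, 2 and 3. The lowest value was in control replicate 2, and the groups overlapped. These values rest on 387 to 562 reads per library. The log2 fold change was 0.10 ± 0.12 (SE, n = 3 per group, limma adjusted p = 0.575). Its 95% interval ran from -0.18 to 0.38, that is from 0.881 to 1.30 times the control. This interval covers the spread between libraries under the scaling used, and not the choice of scaling. The direction was not fixed: the estimate was -0.25 after rescaling to TPM and -0.08 after the length and GC correction. Rescaling to TPM moved the median tested gene to -0.33, and relative to that median Hif1a stood at 0.08.

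An antisense gene, Gm15283, spans the Hif1a locus. It held 8 to 23 reads per library, and the strand setting of the counting is not given in the sources used here, so reads of the pair cannot be told apart. A protein-coding gene on the same strand as Hif1a, Gm49321, overlaps 9878 bases of the locus and held no read in any library. How reads in shared bases were assigned is not given either. The Hif1a level, and its ratio to Epas1, may therefore miss reads.

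Epas1 (ENSMUSG00000024140, chr17:86753907-86833410), which encodes HIF-2alpha, an alpha subunit prominent in endothelial cells, measured 79.1, 80.4 and 72.6 in the controls and 81.3, 65.2 and 77.4 in the TuD libraries. Its highest and its lowest value were both in the TuD group, and the log2 fold change was -0.06 ± 0.12 (SE, adjusted p = 0.740). The estimate turned to 0.04 after the length correction and without TuD replicate 2. Per unit of length Epas1 transcripts outnumbered those of Hif1a in every library, by 15.7, 20.7 and 16.6 times in the controls and 17.5, 14.4 and 15.2 times in the TuD libraries. That ratio did not separate the groups (exact two-sided permutation p = 0.4, where 3 against 3 cannot go below 0.1).

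Arnt, the shared partner of both alpha subunits (ENSMUSG00000015522, chr3:95434388-95497240), was lower in the decoy hearts by a small amount. It measured 4.67, 5.13 and 4.76 normalised FPKM in the controls and 3.73, 3.13 and 3.99 in the TuD libraries. The lowest control stood above the highest TuD value. On the log2 scale the difference was -0.38 ± 0.12 (SE, adjusted p = 0.0427). The TuD mean was 0.745 of the control mean. The call ended without control replicate 1 (adjusted p = 0.0796), 2 (0.132) or 3 (0.109) and without TuD replicate 1 (0.0840) or 2 (0.111). It also ended after the length correction (-0.24, 0.144) and with a covariate for the Y-linked transcripts (-0.25, 0.295).

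Of the 3 prolyl hydroxylase genes Egln3 passed the test; whether its fold change differs from that of Egln1 or Egln2 was tested only through its share of the 3, given below. Egln3 (ENSMUSG00000035105, chr12:54178981-54203860), itself a HIF target, measured 45.5, 73.0 and 48.5 normalised FPKM in the controls and 30.8, 37.4 and 35.1 in the TuD libraries. Control replicate 2 stood far above the other controls, but all 3 controls lay above all 3 TuD values. The TuD mean of 34.4 ± 3.32 was 0.618 of the control mean of 55.7 ± 15.1 (SD, n = 3). The log2 fold change was -0.66 ± 0.18 (SE, adjusted p = 0.0287), with a 95% interval from -1.07 to -0.24. This was the member with the smallest p, and it still passed after the length correction (-0.72, adjusted p = 0.0226), where 24.1% of all genes passed and no other member did.

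The Egln3 call rested in part on single libraries. Without control replicate 2 the log2 fold change was -0.45 (adjusted p = 0.0577), and without TuD replicate 1 it was -0.58 (0.0869). With the Y-linked covariate, which rests the estimate on TuD replicate 3, it was -0.63 (0.144); under that model 11.3% of all genes and none of the 9 passed.

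Egln1 (ENSMUSG00000031987, chr8:124908587-124949324), the main hydroxylase of HIF-1alpha, was the most abundant of the 3. It measured 159.7, 183 and 149 in the controls and 152, 118 and 152 in the TuD libraries. The groups overlapped, with TuD replicate 2 the lowest, and the log2 fold change was -0.22 ± 0.14 (SE, adjusted p = 0.245). Egln2 (ENSMUSG00000058709, chr7:27158658-27166802), the hydroxylase with the lowest level here, measured 24.8, 29.7 and 26.4 and then 28.5, 30.6 and 26.7. The estimate was 0.08 ± 0.11 on the log2 scale (SE, adjusted p = 0.585), but -0.30 (0.111) after rescaling to TPM. Relative to the median gene on that scale Egln2 stood at 0.04.

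Within each library Egln3 made up 19.8, 25.6 and 21.6% of the summed FPKM of the 3 hydroxylase genes in the controls and 14.6, 20.1 and 16.4% in the TuD libraries. This share does not depend on how a library is scaled. The groups overlapped narrowly, since TuD replicate 2 stood above control replicate 1, with p = 0.2 in an exact permutation test (two-sided). After the length correction the difference in the mean share went from -5.30 to -6.03 percentage points, and the exact permutation p was 0.1. Egln1 supplied 66.7 ± 2.70% of the summed FPKM in control hearts and 68.8 ± 4.63% in decoy hearts (SD, n = 3). Egln2 supplied 10.8, 10.4 and 11.8% in the controls and 13.5, 16.4 and 12.5% in the TuD libraries, without overlap. The Egln1 and Egln2 shares were not tested.

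Vhl (ENSMUSG00000033933, chr6:113623959-113631633), the receptor of the ligase that takes up hydroxylated HIF alpha, measured 4.40, 4.27 and 4.62 normalised FPKM in the controls and 3.59, 4.71 and 4.39 in the TuD libraries. TuD replicates 1 and 2 were the lowest and the highest of the 6. A log2 fold change of -0.07 ± 0.12 resulted (SE, adjusted p = 0.708), which was 0.04 without TuD replicate 1.

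Vegfa (ENSMUSG00000023951, chr17:46016993-46032369), the ligand that drives capillary growth, had the largest log2 estimate of the 9 in the 2-group model, and also the largest standard error. After the length correction its estimate (-0.71) was close to that of Egln3 (-0.72). It measured 34.9, 56.95 and 39.1 normalised FPKM in the controls and 34.1, 19.2 and 24.1 in the TuD libraries. All TuD values were below all controls, but TuD replicate 1 and control replicate 1 were nearly level. The TuD mean of 25.8 ± 7.62 was 0.591 of the control mean of 43.6 ± 11.7 (SD, n = 3). The log2 fold change was -0.75 ± 0.24 (SE, adjusted p = 0.0461), with a 95% interval from -1.30 to -0.21. The estimate stayed between -0.55 and -1.14 under every alternative, while the call ended under several.

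Leaving out control replicate 2 (-0.55, adjusted p = 0.138) or 3 (-0.82, 0.08003), or TuD replicate 2 (-0.56, 0.129) or 3 (-0.73, 0.0754), ended the Vegfa call. So did the length correction (-0.71, 0.0634) and the Y-linked covariate (-0.81, 0.1499). TuD replicate 3, which has Y-linked transcripts like the controls, measured 24.1, below each of them. That is a single library, and the part of the Y-linked difference cannot be fully told apart from that of the vector.

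Vegfb (ENSMUSG00000024962, chr19:6982473-6987651), a ligand of VEGF receptor 1 that is abundant in heart muscle, was the most abundant member. It measured 257, 283 and 301 normalised FPKM in the controls and 294, 303 and 288 in the TuD libraries. The groups overlapped, with a log2 fold change of 0.08 ± 0.11 (SE, adjusted p = 0.626). The estimate turned to -0.18 (0.177) after the length correction and to -0.27 (0.0469) with quantile normalization. Vegfa stood at 0.136, 0.201 and 0.130 of the Vegfb level in the controls and at 0.116, 0.0633 and 0.0837 in the TuD libraries. These ratios did not overlap, and the exact two-sided permutation p was 0.1, the smallest that 3 against 3 allows. After the length correction the difference in the mean ratio went from -0.0679 to -0.0435, and the exact permutation p was 0.3.

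**Figure D2:**
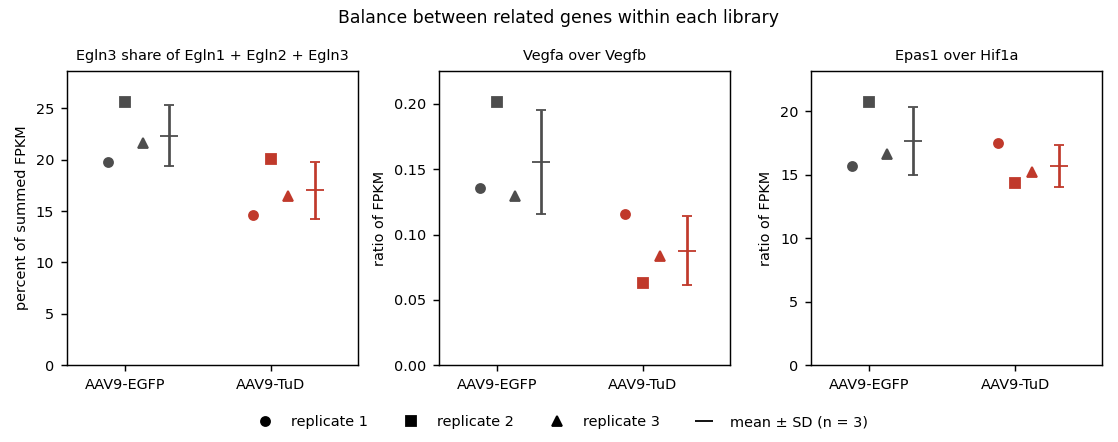
Egln3 as a percent of the summed FPKM of Egln1, Egln2 and Egln3, the ratio of Vegfa to Vegfb, and the ratio of Epas1 to Hif1a (y axes, from 0) in each library; shapes are replicate numbers and bars mean ± SD (n = 3). The Vegfa to Vegfb panel is the one without overlap, from 0.130 to 0.201 in the controls and from 0.0633 to 0.116 in the TuD libraries.

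**Figure D3:**
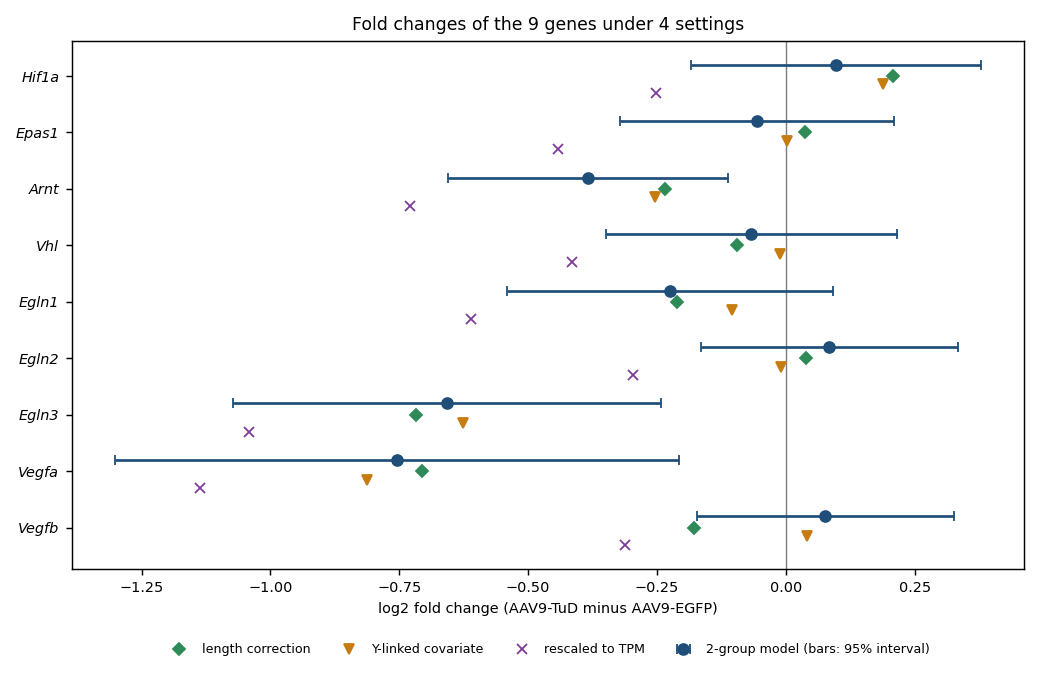
Log2 fold change of the 9 genes (x axis, TuD minus EGFP) in the 2-group model with its 95% interval (circles and bars), and the estimates after the length correction, with the Y-linked covariate and after rescaling to TPM. Egln3 and Vegfa lie near or below -0.63 under all 4, and rescaling to TPM shifts every gene to the left.

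With values rescaled to TPM, the log2 fold change of the median tested gene became -0.33. Under that scaling 6 of the 9 members were lower, against 40.3% of all tested genes. Relative to the shifted median Egln3 stood at -0.71, Vegfa at -0.80 and Arnt at -0.40, and Hif1a at 0.08.

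In the order of control levels, per unit of length, Vegfb (280.5) came before Egln1 (164), Epas1 (77.4), Egln3 (55.7), Vegfa (43.6), Egln2 (27.0), Arnt (4.85), Hif1a (4.43) and Vhl (4.43 normalised FPKM). Neighbours whose control values overlapped were Epas1 with Egln3, Egln3 with Vegfa, Arnt with Hif1a, and Hif1a with Vhl. Vegfb lay above 98.3% of the tested genes, whereas 44.3% lay below Hif1a.

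Over the 6 libraries, the genes whose log2 levels were most like those of Hif1a were Rgs2 (Pearson r = 0.989), 2810013P06Rik (0.987) and Pds5b (0.985). For Epas1 they were Zfp579 (0.973), Lrrfip2 (0.965) and Gripap1 (0.965), and for Vegfa they were Synpo (0.995), Preb (0.991) and Klf13 (0.986). With 6 points that share 2 groups and their library depths, and 10460 genes to search, values of this size describe the libraries only. Among the members themselves, Vegfa was most like Egln1 (r = 0.881) and Arnt (0.877), and Hif1a was least like Egln3 (-0.730).

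The 300 bases around the annotated starts of Egln3 and Vegfa, from 250 before to 50 after, are shown because both are known HIF targets and both were lower. They were searched for the core of the hypoxia response element, ACGTG or GCGTG, on both strands, counting overlapping matches each time. Egln3 held 1 match, at position -229 from the start, in capitals below. The upstream Vegfa window held none, and a second annotated Vegfa start, inside the gene, held 2. Sequence outside these windows was not searched, so elements that lie farther off would not be seen. The core was found in 43.8% of 32851 promoter windows in the RefSeq table (GRCm38.p6). It was also found in the windows of Hif1a (3 matches, with an overlapping pair), Arnt (1), Egln1 (2), Egln2 (1 and 6, from its pair of starts) and Vegfb (2), and not in that of Vhl.
Egln3, chr12:54203825-54204124, minus strand: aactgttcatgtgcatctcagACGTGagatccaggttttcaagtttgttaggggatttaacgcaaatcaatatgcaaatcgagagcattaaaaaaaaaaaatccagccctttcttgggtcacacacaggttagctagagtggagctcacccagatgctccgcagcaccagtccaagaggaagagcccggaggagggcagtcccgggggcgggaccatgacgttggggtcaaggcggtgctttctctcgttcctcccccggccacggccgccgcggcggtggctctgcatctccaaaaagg
Vegfa, chr17:46032328-46032627, minus strand: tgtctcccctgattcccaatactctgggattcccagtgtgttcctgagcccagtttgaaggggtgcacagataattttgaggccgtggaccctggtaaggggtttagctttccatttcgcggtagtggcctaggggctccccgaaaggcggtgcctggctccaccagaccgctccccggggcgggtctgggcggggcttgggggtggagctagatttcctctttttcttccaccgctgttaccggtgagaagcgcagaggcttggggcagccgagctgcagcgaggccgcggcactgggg

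The wider HIF machinery, a list of 13 genes of which 11 were tested, went both ways: 3 were higher, 1 was lower and 7 did not pass, where 15.0% of all tested genes were higher and 14.3% lower. Their median log2 fold change was -0.04, and that of all tested genes 0.01. After rescaling to TPM 1 was higher and 4 were lower, where 40.3% of all tested genes were lower. Hif3a and Arnt2, an inhibitory alpha subunit and a relative of Arnt, were under the filter, at or below 0.305 and 0.0426 normalised FPKM. The 3 that were higher, Eloc, Elob and Rbx1, encode elongin C, elongin B and the RING subunit of the ligase that works with Vhl. Eloc rose from 8.65 ± 0.999 to 17.2 ± 1.00 normalised FPKM (SD, n = 3; log2 fold change 0.96 ± 0.11 SE, adjusted p = 0.00241).

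Elob rose from 111 ± 10.4 to 183 ± 28.9 (0.71 ± 0.14 SE, adjusted p = 0.00941) and Rbx1 from 16.9 ± 0.391 to 25.9 ± 3.87 (0.59 ± 0.12 SE, adjusted p = 0.0113). The scaffold of the same ligase, Cul2, had a log2 fold change of 0.03 (adjusted p = 0.860). The calls of Elob and Rbx1 ended after rescaling to TPM (0.108 and 0.216) and with the Y-linked covariate (0.0891 and 0.107), and that of Rbx1 after the length and GC correction (0.0687).

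Hif1an was the member of this list that was lower. It encodes FIH, the asparagine hydroxylase that keeps HIF alpha from its coactivators when oxygen is present. It measured 11.4, 12.2 and 9.43 normalised FPKM in the controls and 5.78, 4.89 and 7.40 in the TuD libraries, with no overlap. The log2 difference of -0.83 ± 0.16 (SE, adjusted p = 0.00908) was larger in this model than that of any of the 9 genes above. After the length correction it was -0.71 (0.0150). The call ended with the Y-linked covariate (-0.54, 0.0874). Of the coactivators that FIH keeps away, Ep300 had a log2 fold change of -0.42 (adjusted p = 0.0741; 0.0253 without TuD replicate 3) and Crebbp one of -0.04 (0.830). Cited2, which competes for them, stood at 0.08 (0.739), Os9 at -0.10 (0.519), and the chaperone genes Hsp90aa1 and Hsp90ab1 at -0.14 (0.600) and -0.37 (0.106). Hsp90ab1 passed as lower with quantile normalization (-0.76, 0.00418) and after rescaling to TPM (-0.76, 0.00544).

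Among 8 other VEGF ligands and receptors, all tested, 2 were lower, none was higher and 6 did not pass. Over all tested genes 14.3% were lower, and 29.3% passed in either direction. The 2 lower genes were both neuropilins, co-receptors that bind VEGF-A beside the kinase receptors. Nrp1 measured 9.90, 8.26 and 9.19 normalised FPKM in the controls and 5.33, 6.68 and 4.46 in the TuD libraries (log2 fold change -0.70 ± 0.15 SE, adjusted p = 0.0124). Nrp2 measured 5.67, 5.04 and 5.90 and then 2.69, 4.09 and 2.44 (-0.78 ± 0.17 SE, adjusted p = 0.0140). For both genes the groups were separate. After the length correction neither passed (-0.53, adjusted p = 0.0520, and -0.61, 0.0635). With GC corrected as well, Nrp1 passed (-0.79, 0.0221) and Nrp2 did not (-0.55, 0.0919).

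The kinase receptors did not pass in the 2-group model. Kdr, which carries most of the VEGF-A signal in endothelium, had a log2 fold change of -0.15 (adjusted p = 0.476), Flt1, the receptor for VEGF-B, one of 0.09 (0.602), and Flt4, the lymphatic receptor, one of -0.36 (0.136). Flt4 passed as lower with the Y-linked covariate (-0.67, 0.0498) and after rescaling to TPM (-0.70, 0.00757), and Kdr after rescaling to TPM (-0.53, 0.0125). Of the other ligands Pgf stood at 0.25 (0.470) and Vegfd at -0.21 (0.424). Vegfc measured 5.35, 5.28 and 1.94 in TuD replicates 1, 2 and 3 against 3.08 to 3.69 in the controls (0.18, adjusted p = 0.688), and passed as higher without TuD replicate 3 (0.60, 0.0100). With the Y-linked covariate its estimate was -0.65 (0.0403).

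Known HIF targets other than Egln3 and Vegfa did not move one way. Egln3 and Vegfa, described above, passed as lower and are not on this list, so the counts here leave them out. Of 36 on the list 32 were tested: 3 were higher, 3 were lower and 26 did not pass, so that 18.8% were called against 29.3% of all tested genes, with a median log2 fold change of -0.07. After rescaling to TPM 2 were higher and 13 lower, which is close to the 40.3% of all tested genes that were lower on that scale. Bhlhe40, a clock-linked repressor, fell from 15.3 ± 2.35 to 7.98 ± 1.51 normalised FPKM (SD, n = 3; -0.90 ± 0.16 SE, adjusted p = 0.00684). Hk2, a hexokinase, fell from 48.4 ± 5.59 to 31.1 ± 2.50 (-0.63 ± 0.12 SE, adjusted p = 0.00831). With the Y-linked covariate neither passed (0.0635 and 0.0676).

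On the other side, Fam162a, a mitochondrial protein gene, rose from 110.2 ± 6.85 to 195 ± 30.6 (0.81 ± 0.14 SE, adjusted p = 0.00591; 0.34 and 0.0662 after the length and GC correction). Ankrd37 rose from 1.38 ± 0.654 to 3.73 ± 1.14 on 28 to 129 reads per library (1.19 ± 0.26 SE, adjusted p = 0.0137). Ankrd37 did not pass without control replicate 2 (0.0517) and after the length correction (0.92, 0.0538). Higd1a, a mitochondrial protein gene, rose from 39.3 ± 2.03 to 55.2 ± 8.46 (0.48 ± 0.13 SE, adjusted p = 0.0273). It passed without TuD replicate 3 but not without any other library (0.0585 to 0.0829), with the Y-linked covariate (0.24, 0.269) or after rescaling to TPM (0.092, 0.610).

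The next 2 by p did not pass. Aldoa, a glycolytic aldolase, had a log2 fold change of 0.44 (adjusted p = 0.0660; 0.0361 without TuD replicate 3), and Adm, which encodes the vasodilator adrenomedullin, one of -0.57 (0.0724; 0.0236 without TuD replicate 3). Adm also passed as lower after the length correction (-0.83, 0.0292), and Aldoa passed as higher after the length and GC correction (0.52, 0.0184). Under the filter were Pfkfb4, Car9, Epo and Car12, the last 2 with no read in any library.

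**Figure D4:**
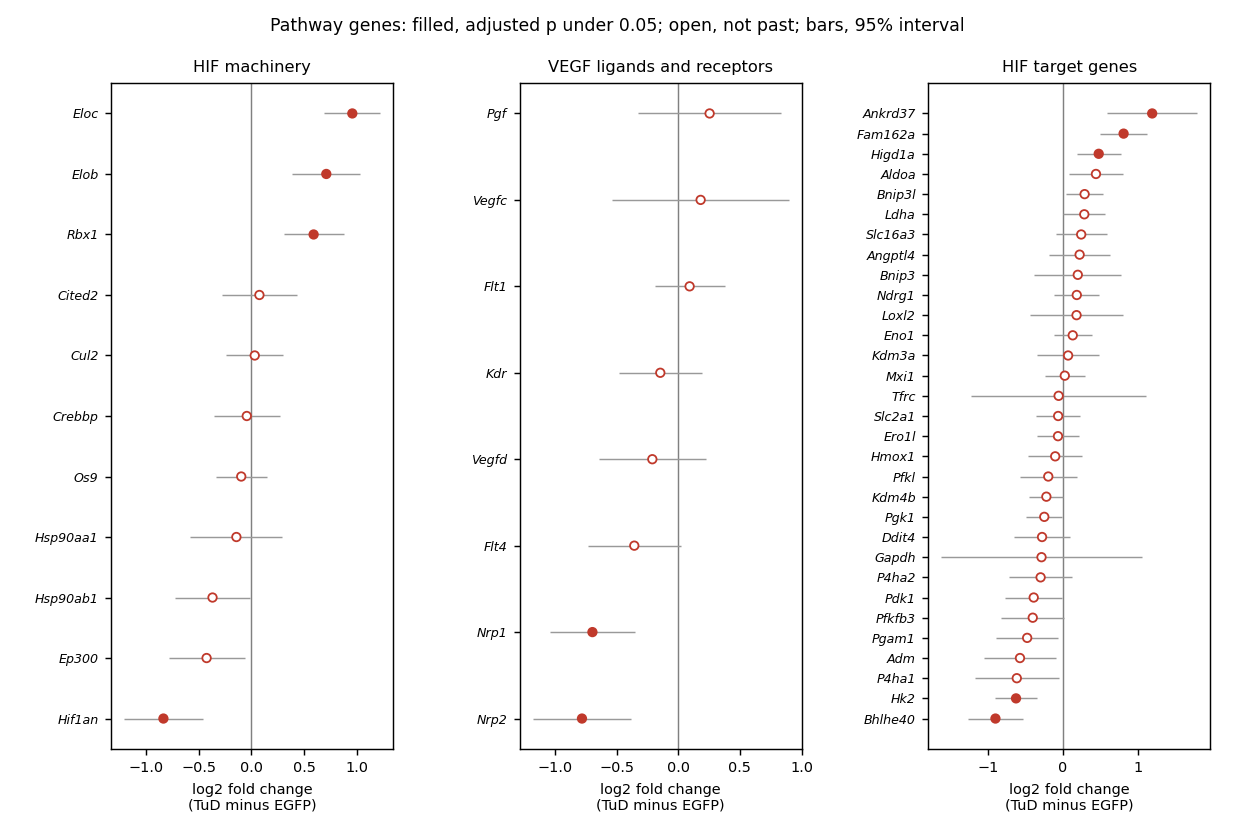
Log2 fold change (x axis, TuD minus EGFP) with its 95% interval for the tested genes of 3 lists, except 1 HIF target not reported here; filled points passed at an adjusted p under 0.05 and open points did not. Filled points lie on both sides of 0 among the HIF machinery and the HIF targets, as for Ankrd37 (1.19) and Bhlhe40 (-0.90), and only below 0 among the VEGF ligands and receptors (Nrp1 and Nrp2).

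In bulk tissue fewer cells of a type and less RNA per cell cannot be told apart, so markers of the cells that make or receive these signals are given beside them. For the counts below, 15.0% of all 10460 tested genes were higher and 14.3% lower. After rescaling to TPM 442 genes were higher and 40.3% were lower. With quantile normalization 1473 were higher and 1681 lower. Without TuD replicate 1, 1083 of 10233 tested genes were higher. Endothelial markers summed to 501 to 679 normalised FPKM in the controls and 527 to 767 in the TuD libraries, and of 11 tested 1 was higher (Egfl7, an endothelial matrix protein gene) and none lower. Cardiomyocyte markers summed to 31165 to 33292 and 33779 to 40060, with 4 of 10 higher and none lower, but 1 higher and 3 lower after rescaling to TPM and none higher and 2 lower with quantile normalization. Fibroblast markers summed to 136 to 146 and 131 to 182 (1 of 6 higher and 1 lower; none higher and 3 lower after rescaling to TPM), and pericyte and smooth muscle markers to 144 to 189 and 148 to 278 (2 of 6 tested higher). Leukocyte markers summed to 161 to 189 and 172 to 329. None of the 6 tested passed (2 at an unadjusted p under 0.05), but 4 of 6 were higher with the Y-linked covariate and without TuD replicate 1. Under that covariate they were Cd68 (1.17, adjusted p = 0.0362), C1qa (0.93, 0.0448), C1qb (1.01, 0.0452) and C1qc (0.88, 0.0393), all macrophage genes. Ptprc, the pan-leukocyte marker, stayed at or under 0.391.

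Adipocyte markers summed to 61.6 to 73.8 and 126 to 160.0, and both of the 2 tested were higher. Fabp4, which capillary endothelium also expresses, made up most of the sum. Cfd, which encodes adipsin, measured 0.747, 0.275 and 0.0571 in the controls and 9.53, 3.52 and 3.32 in the TuD libraries (2.72 ± 0.41 SE, adjusted p = 0.00418). Adipoq, under the filter, was at or under 0.0384 in the controls and 0.902, 0.551 and 0.218 in the TuD libraries, without overlap; Plin1, Retn and Lep were under the filter too. Erythroid markers summed to 1142 to 1604 and 1374 to 3292, with 2 of 5 higher (Hba-a1, adjusted p = 0.0485, and Hba-a2, 0.0204), 4 of 5 without TuD replicate 1 and none after the length correction. The part of any of these in the values of Egln3, Vegfa and Arnt was not tested.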

How the data were processed

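The authors deposited FPKM for each gene and library with the gene length; the submitters' processing notes name HISAT2 2.0.5, featureCounts 1.5.0-p3 and the mm10 build, and per the labels libraries were made from total RNA. Annotation release and strand setting are not given in the sources used here. Libraries were grouped by their titles. Multiplying FPKM by length recovered integers for 100% of values (tolerance 0.05 reads). On these reads limma-voom called 1592 genes higher and 1694 lower. The library size behind the deposited FPKM was not the recovered total. It was 1.06, 1.06 and 1.04 times that total in control replicates 1, 2 and 3. In TuD replicates 1, 2 and 3 it was 0.946, 0.943 and 1.01 times. The deposited values thus already carry a scaling that differs between libraries.

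Each library's FPKM was divided by a size factor (0.985 to 1.02, the median of ratios over genes with FPKM of at least 1 in all 6 libraries). Genes with FPKM of at least 1 in at least 3 libraries were fitted with limma 3.58.1 in R 4.3.3 (lmFit, then eBayes with trend) after adding 0.5 and taking log2; two-sided p-values were adjusted by Benjamini-Hochberg over 10460 genes. A count model was not the main test because the values used are FPKM. Log2 fold changes on this scale understate those of low genes. Within-library ratios were tested by exact permutation. The length and GC corrections removed each library's lowess trend (span 0.3); the Y-linked covariate marks libraries whose 4 Y-linked genes sum above 1 FPKM. The pipeline was tested on simulated data. The simulated libraries held no trend with gene length and no Y-linked difference, so that test does not cover either.

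The 9 members, the lists and the alternatives were chosen with earlier results of these data known. Named genes are the members, all tested genes of the HIF machinery and VEGF lists, the 8 targets with the smallest p, and the 3 genes most correlated with Hif1a, Epas1 and Vegfa. Marker genes, the genes under the filter, Gm15283 and Gm49321 were named outside that rule. Values of 1 of the 8 targets are not reported here; the counts of its list include it. Sequences come from RefSeq (GRCm38.p6) and GENCODE M21; 8 of the 9 members are in the promoter table.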

Additional observations from a re-analysis of the deposited data

How the results depend on the processing

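Fold changes and counts were recomputed under 20 alternatives (19 for 10 genes that the filter at FPKM 5 removes, among them Hif1a, Arnt and Vhl). Each ratio was recomputed under 7 and kept its direction. After the length correction that of Vegfa to Vegfb went from a difference of -0.0679 to -0.0435 (exact permutation p from 0.1 to 0.3). The Egln3 share went from a difference of -5.30 to -6.03 percentage points (exact permutation p from 0.2 to 0.1). Rescaling to TPM moved the median gene to -0.33. It gave log2 fold changes of -0.25 for Hif1a, -0.30 for Egln2 and -0.31 for Vegfb (reversed). Those of Epas1 (-0.44), Vhl (-0.41) and Egln1 (-0.61) then passed the threshold. Relative to the shifted median Hif1a, Egln2 and Vegfb stood at 0.082, 0.037 and 0.022, and Epas1, Vhl and Egln1 at -0.11, -0.081 and -0.28. Rescaling to TPM also reversed Cul2 (-0.34), Cited2 (-0.30), Vegfc (-0.16), Pgf (-0.086) and Flt1 (-0.28). Genes called higher and lower were 442 and 4214, against 1565 and 1498; the HIF machinery then had 1 higher and 4 lower, the VEGF list 4 lower and the HIF targets 13 lower. Quantile normalization gave Vegfb -0.27 and Aldoa -0.12, with 2 HIF machinery genes and 5 targets lower. The length correction gave Arnt -0.24 and Vegfa -0.71 (calls ended) and reversed Epas1 (0.038), Vegfb (-0.18), Crebbp (0.14), Cited2 (-0.015) and Kdr (0.012), with 0 VEGF genes and 6 targets lower. With GC added, Arnt was -0.23 and Vegfa -0.65 (calls ended), and Hif1a (-0.076), Epas1 (0.11), Vegfb (-0.015), Cul2 (-0.25), Crebbp (0.20), Vegfc (-0.024) and Kdr (0.050) reversed; 954 genes were higher, and 1 VEGF gene and 6 targets lower.

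The Y-linked covariate, whose estimate rests on TuD replicate 3, gave Arnt -0.25, Egln3 -0.63 and Vegfa -0.81 (calls ended) and reversed Epas1 (0.0020), Egln2 (-0.0094), Os9 (0.046), Vegfc (-0.65) and Vegfd (0.037). It left 651 genes higher and 529 lower, with 1 HIF machinery gene higher and 0 lower, 4 VEGF genes lower and 1 target lower. With no filter on low values, 22702 genes were tested, 1010 were higher and 956 lower, and 1 VEGF gene was lower and 1 target higher; Arnt (-0.38, adjusted p = 0.0898), Egln3 (-0.66, 0.0876) and Vegfa (-0.75, 0.134) kept their estimates in limma and lost their calls. Vegfa (-0.75) also lost its call without the variance trend (0.0521) and with robust eBayes (0.0513). With limma-voom on recovered reads 2 HIF machinery genes were lower. The replicate numbers do not pair the libraries (correlations of deviations 0.0637, 0.0882 and -0.0554); with a replicate block Arnt (-0.38, adjusted p = 0.0783) and Vegfa (-0.75, 0.0801) did not pass in limma, and Egln3 did.

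Leaving out 1 library at a time gave ranges of -0.45 to -0.29 for Arnt, -0.79 to -0.45 for Egln3, -0.97 to -0.55 for Vegfa, -0.12 to 0.044 for Epas1 and -0.13 to 0.035 for Vhl. Among the lists it gave -0.027 to 0.12 for Cul2, -0.13 to 0.040 for Crebbp, -0.090 to 0.16 for Cited2, -0.031 to 0.60 for Vegfc, -0.035 to 0.45 for Pgf, -0.0074 to 0.17 for Flt1 and -0.23 to 0.0035 for Kdr. Genes higher ranged from 878 to 1638 and lower from 718 to 1620 (878 and 718 without control replicate 2). Of the HIF machinery 1 to 2 were lower, of the VEGF list 0 to 1 higher, and of the HIF targets 1 to 4 higher and 3 to 4 lower. The causes of these changes were not tested. With 3 libraries a group and 387 to 562 reads per library, the 95% interval for Hif1a runs from -0.18 to 0.38.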
